A study of Mus musculus with 6 samples.

Results

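The genes described here encode troponin and tropomyosin, the proteins that switch the thin filament of muscle on and off. They were found as the rows of the count tables whose Ensembl identifiers carry the symbols Tnnt1, Tnnt2, Tnni1, Tnni3, Tnnc1, Tpm1, Tpm2, Tpm3 and Tpm4 in the GENCODE annotation of the mouse build GRCm38. All 9 were present among 52550 gene rows, and all 9 had enough counts to be tested, as did 14386 genes in all. The samples were heart muscle cells from mice on postnatal day 1, sorted with magnetic beads and cultured for 48 hours with horse serum (5%) and FBS (10%) in the medium, then for 24 hours without serum. There were 3 libraries labelled GR-cKO, from cells with a cardiomyocyte-specific deletion of the glucocorticoid receptor, and 3 control libraries. Cells of both genotypes went through the same culture, and the treatment label reads ctrl for all 6. The Cre driver, the deleted exon, the sex of the pups and whether hearts were pooled are not stated in the labels. RNA was read as tags near the 3' end of each transcript, so 1 tag stands for 1 transcript whatever its length.

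Troponin is a complex of a calcium sensor (troponin C), an inhibitor of the actin and myosin reaction (troponin I) and a linker that ties both to tropomyosin (troponin T). At rest tropomyosin covers myosin binding sites on actin, and calcium bound to troponin C moves it aside. The heart makes slow skeletal troponin I, from Tnni1, before birth, and cardiac troponin I, from Tnni3, replaces it as the heart matures. Tpm1 gives the main striated muscle tropomyosin of the mouse heart, and Tpm2 and Tpm3 give other muscle forms. Non-muscle forms found along stress fibres come from Tpm1, Tpm2, Tpm3 and Tpm4.

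The libraries matched their labels in the targeted gene as far as a 3' tag can show. Nr3c1, which encodes the glucocorticoid receptor, was at 46.2, 42.8 and 44.1 CPM (counts scaled to library size) in GR-cKO libraries, against 68.2, 73.9 and 72.4 CPM in control libraries, and a tag outside the deleted part need not fall with the deletion. Gene counts ran from 19371508 to 22583596 per library. Xist was at 0 to 0.0996 CPM in GR-cKO libraries and at 271 to 293 CPM in control libraries, so effects of sex and of genotype cannot be told apart here. The labels call the libraries biological replicates without naming animals, so p-values measure the spread between these libraries only. Of all genes tested 14.8% passed the threshold, an adjusted p below 0.05 in edgeR's quasi-likelihood test, with 1097 genes higher and 1035 lower in GR-cKO. With scaling to the ERCC spike-in RNAs these numbers were 1355 and 522.

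Troponin genes were higher in GR-cKO cells, apart from Tnni3, and the minor tropomyosin genes Tpm3 and Tpm4 were lower. Of the 9 genes 6 passed the threshold, where 14.8% of all genes did. Tnnc1, Tnnt1, Tnni1 and Tnnt2 rose, against a background of 7.63% of genes called higher, and Tpm3 and Tpm4 fell, against 7.19% called lower. Tnni3, Tpm1 and Tpm2 did not pass. In 7 of the 9 genes GR-cKO and control ranges were separate, compared with 29.9% of all genes tested. The median log2 fold change was 0.12 over the 9 genes and -0.01 over all genes tested. The rises and falls were modest, and the largest was 1.38-fold. With ERCC scaling the 4 rises passed and 0 of the 2 falls did in edgeR, with 5 genes higher and 1 lower at an unadjusted p under 0.05.

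**Figure D1:**
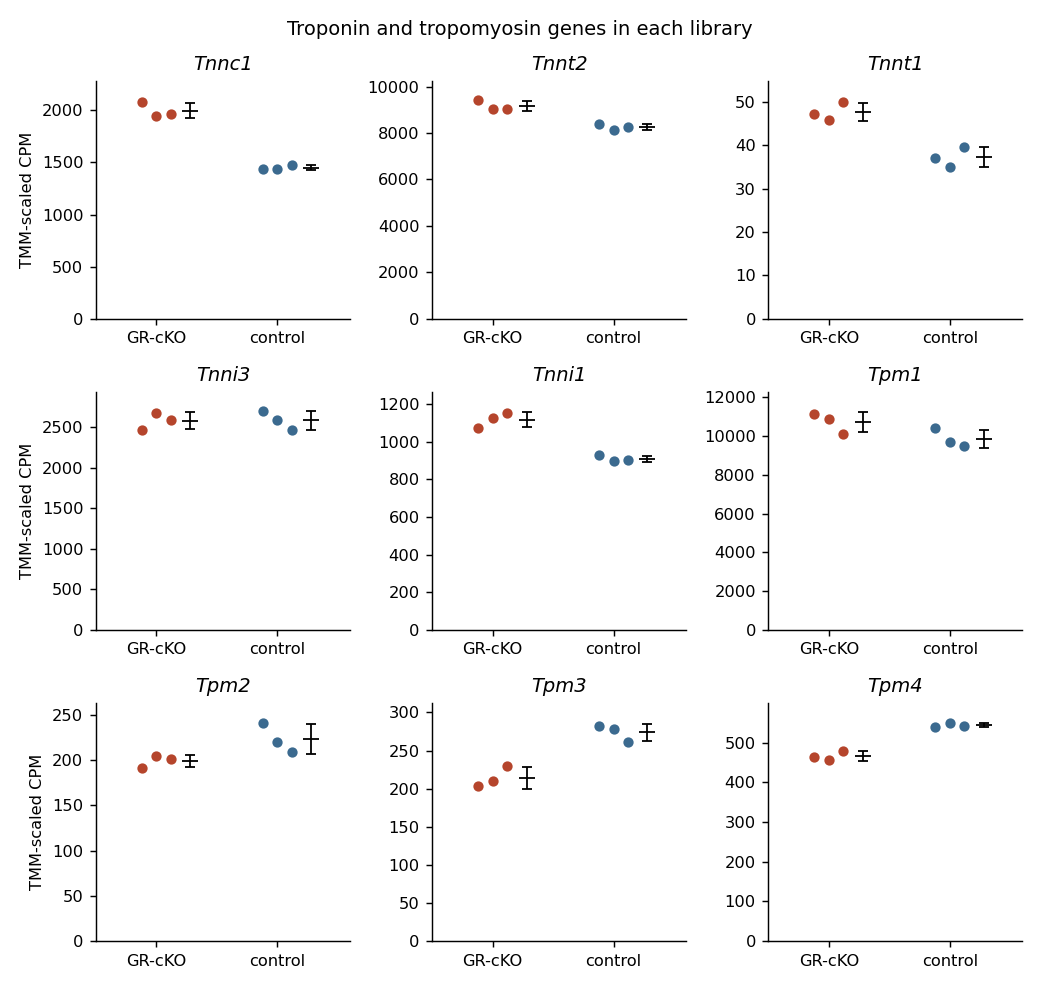
Level of each gene in each library as CPM scaled by the TMM method (vertical axis, starting at 0), with GR-cKO left of control. Points are libraries, and the black bar is the mean with the SD over 3 libraries. Tnnc1 is at 1949 to 2080 CPM in GR-cKO and 1433 to 1480 CPM in control, while the Tnni3 points of both groups share 1 range.

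Promoter sequence is shown for 4 genes, the pair of troponin I genes that behaved differently, the troponin gene with the largest rise and the tropomyosin gene with the largest fall. Each is the 250 bases before a RefSeq transcription start (GRCm38.p6), read 5′ to 3′ on the gene's strand, with matches to the searched motifs in capitals. The windows are chr1:135799171-135799420 on the plus strand for Tnni1, chr7:4522529-4522778 on the minus strand for Tnni3, chr14:31208062-31208311 on the plus strand for Tnnc1 and chr3:90072401-90072650 on the plus strand for Tpm3.
Tnni1: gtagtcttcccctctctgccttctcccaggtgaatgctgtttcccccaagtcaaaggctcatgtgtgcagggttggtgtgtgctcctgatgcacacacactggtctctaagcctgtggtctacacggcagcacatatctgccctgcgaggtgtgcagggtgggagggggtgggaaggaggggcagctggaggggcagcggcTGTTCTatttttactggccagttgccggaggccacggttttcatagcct
Tnni3: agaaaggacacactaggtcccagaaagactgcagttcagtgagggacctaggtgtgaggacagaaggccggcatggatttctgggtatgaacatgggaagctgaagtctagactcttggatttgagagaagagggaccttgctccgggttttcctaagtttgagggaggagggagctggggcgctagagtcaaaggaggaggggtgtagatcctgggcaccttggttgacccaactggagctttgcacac
Tnnc1: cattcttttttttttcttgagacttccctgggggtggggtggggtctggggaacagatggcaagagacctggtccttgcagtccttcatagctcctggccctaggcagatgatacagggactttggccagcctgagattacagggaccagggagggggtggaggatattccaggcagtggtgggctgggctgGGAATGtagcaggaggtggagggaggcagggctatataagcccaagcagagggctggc
Tpm3: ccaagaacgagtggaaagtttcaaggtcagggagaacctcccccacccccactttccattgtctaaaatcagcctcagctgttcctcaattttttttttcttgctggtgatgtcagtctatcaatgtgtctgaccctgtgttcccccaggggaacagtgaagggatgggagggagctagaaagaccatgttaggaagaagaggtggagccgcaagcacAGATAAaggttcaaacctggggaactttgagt
In these windows the capitals mark TGTTCT in Tnni1, GGAATG in Tnnc1 and AGATAA in Tpm3. The first is a single arm of the glucocorticoid response element on the minus strand, the second an MCAT site (CATTCC, bound by TEAD factors) on the minus strand and the last a GATA site on the plus strand. Both strands were searched for 8 motifs. A single arm of the glucocorticoid response element was searched as AGAACA, and the full element as that arm followed, after any 3 bases, by its reverse complement. The GATA site was searched as AGATAA and the MCAT site in the letters given above. The TATA box was searched as TATAAA. The hypoxia response element was searched by its core, ACGTG. The MEF2 site and the CArG box were searched by their consensus. RefSeq gave 12 start sites for the 9 genes. The full glucocorticoid element matched in 0 of the 12 windows and in 0.00913% of 32851 windows of the same length over all genes. The single arm matched in Tnnt2 and Tnni1, and in 16.1% of all windows; the 2 Tnni1 windows overlap and hold the same match. MCAT matched in Tnnt2, Tnnc1 and Tpm1, and in 12.6% of all windows. A TATA box stood 25 to 30 bases before the start of Tnnt1, and 12.4% of all windows had a match. GATA sites matched in Tnnt2 and Tpm3, and in 9.99% of all windows. Tnnt2 and Tpm3 also had 2 windows each, and the second window of each held no match to any of the 8 motifs. The MEF2 site, the CArG box and the hypoxia core matched in 0 of the 12 windows, and in 2.92%, 1.47% and 16.6% of all windows. No 2 matches overlapped in these windows, and a match describes letters, not binding.

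Tnnc1 encodes troponin C of slow muscle and heart, the calcium sensor. It lies on chromosome 14 from 31208312 to 31211729 on the plus strand (ENSMUSG00000091898). Its levels were 2080, 1949 and 1965 CPM in GR-cKO libraries, against 1433, 1438 and 1480 CPM in control libraries. Every GR-cKO library was above every control library, by a margin much wider than the spread within either group. Tnnc1 averaged 1998 ± 71.7 CPM in GR-cKO and 1450 ± 25.7 CPM in control (SD, n = 3 each). The edgeR estimate of the log2 fold change was 0.46 ± 0.06 (SE, adjusted p = 1.56e-06). It passed in all 12 alternative fits, with log2 fold changes of 0.43 to 0.56. The 3' end of Tnnc1 lies inside Nisch, a gene on the opposite strand. The strand setting of the counting is not stated in the labels, so reads of these genes may not be fully separated. Nisch itself was at 332, 334 and 343 CPM in GR-cKO libraries and 290, 283 and 294 CPM in control libraries, far below Tnnc1. It too was called higher in GR-cKO, with a log2 fold change of 0.22 (adjusted p = 0.0181 by edgeR). Nisch is annotated from 31170930 to 31216946 on the minus strand, so its annotated 3' end lies outside Tnnc1.

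Tnnt2 encodes cardiac troponin T, the linker to tropomyosin, and was the most abundant troponin transcript. The gene lies on chromosome 1 from 135836354 to 135852260 on the plus strand. Tnnt2 had 9414, 9052 and 9027 CPM in GR-cKO libraries and 8379, 8131 and 8244 CPM in control libraries. The groups did not overlap, yet the rise was small, with a log2 fold change of 0.15 ± 0.05 (SE, adjusted p = 0.0328 by edgeR). The call did not hold without GR-cKO replicate 1, GR-cKO replicate 2, control replicate 2 or control replicate 3, with adjusted p between 0.00824 and 0.143 over all 12 alternatives.

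Tnnt1 encodes slow skeletal troponin T and was the scarcest of the 9 genes. Its position is chromosome 7 from 4504570 to 4516382 on the minus strand, 1922 bases from Tnni3. Tnnt1 stood at 47.3, 45.88 and 50.06 CPM in GR-cKO libraries, against 37.21, 35.0 and 39.61 CPM in control libraries. All GR-cKO values were higher than all control values. The log2 fold change was 0.36 ± 0.10 (SE, adjusted p = 0.0121 by edgeR), or 1.28-fold. Without control replicate 2 the adjusted p was 0.083, within a range of 0.00737 to 0.083 over the alternatives.

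Tnni1, the slow skeletal troponin I gene that the fetal heart uses, was also higher in GR-cKO. Its position is chromosome 1 from 135779434 to 135810989 on the plus strand, 25364 bases from Tnnt2. Its levels were 1074, 1124 and 1152 CPM in GR-cKO libraries, against 926.8, 895.6 and 904.3 CPM in control libraries. The lowest GR-cKO library was above the highest control library. The means were 1117 ± 39.2 CPM in GR-cKO and 908.9 ± 16.1 CPM in control (SD, n = 3 each), with a log2 fold change of 0.30 ± 0.06 (SE, adjusted p = 0.000667 by edgeR). It passed in all 12 alternative fits, with log2 fold changes of 0.28 to 0.39.

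Tnni3, the cardiac troponin I gene, did not differ measurably. It lies on chromosome 7 from 4518305 to 4524229 on the minus strand, and its 5' part overlaps Dnaaf3, a gene on the same strand at 1.49 to 5.04 CPM. Tnni3 had 2467, 2675 and 2587 CPM in GR-cKO libraries and 2697, 2591 and 2460 CPM in control libraries. The ranges of the groups overlapped almost completely. The log2 fold change was 0.00 with a 95% interval of -0.12 to 0.11 (adjusted p = 0.981 by edgeR), so changes beyond that interval were not seen at this depth. With ERCC scaling the estimate was 0.09, also short of the threshold.

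**Figure D2:**
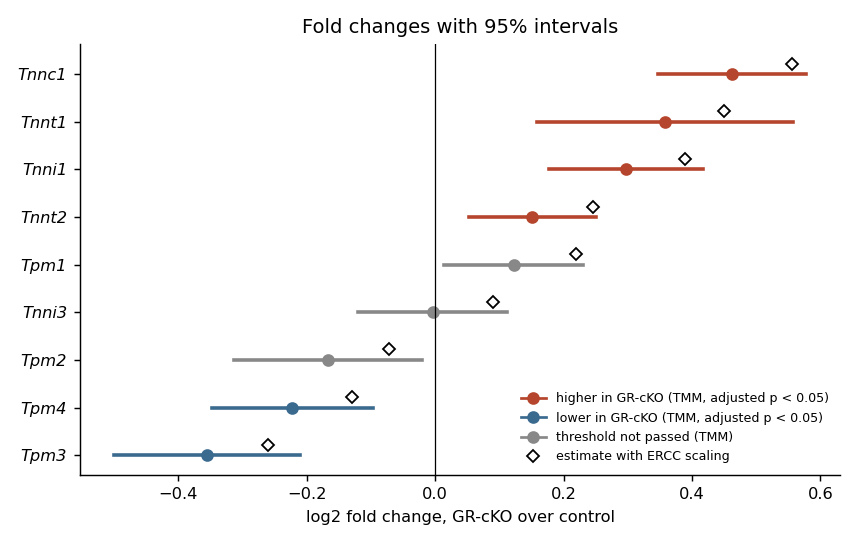
Log2 fold change of each gene, GR-cKO over control (horizontal axis), from edgeR with TMM scaling. Filled points are estimates, lines are 95% intervals, colours mark the threshold and open diamonds are the estimates with ERCC scaling. Tnnc1 (0.46) is the highest and Tpm3 (-0.35) the lowest, and ERCC scaling moves every estimate to the right, Tnni3 from just under 0 to 0.09.

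Tpm1, the main striated muscle tropomyosin gene, was the most abundant of all 9. It lies on chromosome 9 from 67022590 to 67049406 on the minus strand. Tpm1 had 11163, 10901 and 10126 CPM in GR-cKO libraries and 10403, 9699 and 9468 CPM in control libraries. The ranges overlapped, because GR-cKO replicate 3 lay below control replicate 1. The log2 fold change was 0.12 with a 95% interval of 0.01 to 0.23, and the adjusted p of 0.127 by edgeR did not pass. Leaving out GR-cKO replicate 3 or control replicate 1, the libraries that made the ranges overlap, gave adjusted p of 0.0272 and 0.0464, within a range of 0.0272 to 0.373 over the alternatives.

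Tpm2 encodes beta-tropomyosin, a form of slow and developing muscle that smooth muscle also makes. The gene lies on chromosome 4 from 43514711 to 43523765 on the minus strand. Tpm2 had 191.7, 205.1 and 200.9 CPM in GR-cKO libraries and 241.1, 220.6 and 209.2 CPM in control libraries. All GR-cKO values were below all control values, but control libraries spread widely. The log2 fold change of -0.17 ± 0.07 (SE, adjusted p = 0.127 by edgeR) did not pass, nor did it in any of the 12 alternative fits.

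Tpm3 encodes a tropomyosin of slow muscle and of non-muscle cells. It lies on chromosome 3 from 90072649 to 90100902 on the plus strand. Its levels were 203.0, 209.5 and 230.0 CPM in GR-cKO libraries and 282.1, 277.9 and 261.5 CPM in control libraries. The groups were well apart, with means of 214.2 ± 14.1 CPM in GR-cKO and 273.8 ± 10.9 CPM in control (SD, n = 3 each). The log2 fold change was -0.35 ± 0.07 (SE, adjusted p = 0.000705 by edgeR). With ERCC scaling it was -0.26 and the call was lost (adjusted p = 0.0561; range 5.18e-06 to 0.0561 over the alternatives). A retrogene copy on chromosome 14, Tpm3-rs7, had only 0.994 to 2.16 CPM in any library. The treatment of reads with several matches is not given, so reads that match both genes may be missing from both counts.

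Tpm4 encodes a tropomyosin of non-muscle cells and stress fibres. The gene lies on chromosome 8 from 72134975 to 72153142 on the plus strand. Tpm4 had 463.6, 455.8 and 480.0 CPM in GR-cKO libraries and 540.3, 549.9 and 541.8 CPM in control libraries. Control libraries were within a narrow range, and every GR-cKO library lay below it. The log2 fold change was -0.22 ± 0.06 (SE, adjusted p = 0.0131 by edgeR). The call did not hold with ERCC scaling, where the log2 fold change was -0.13, nor without GR-cKO replicate 2 or control replicate 2. Adjusted p ran from 0.000405 to 0.398 over the alternatives.

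One count per gene merges the splice forms. GENCODE lists 16 coding transcripts for Tpm1, 12 for Tnnt2, 7 for Tpm3 and 4 for Tpm2, but 1 each for Tnnc1 and Tpm4. The coding transcripts of Tpm1 end in 3 separate last exons and those of Tpm3 in 5. Whether muscle or non-muscle forms of Tpm1, Tpm2 and Tpm3 moved was not tested, since the tables hold no values below the gene.

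The order of levels was the same in both groups. In CPM of 3' tags it ran from Tpm1 through Tnnt2, Tnni3, Tnnc1, Tnni1, Tpm4, Tpm3 and Tpm2 to Tnnt1. Neighbours in this order had separate ranges over the 3 libraries in control cells. In GR-cKO cells the only neighbours whose ranges overlapped were Tpm3 and Tpm2, at means of 214.2 ± 14.1 and 199.2 ± 6.84 CPM. The 9 genes took 2.62% ± 0.036 of gene counts in GR-cKO and 2.44% ± 0.04 in control (SD, n = 3 each). The 5 troponin genes took 1.48%, 1.45% and 1.48% in GR-cKO libraries, against 1.34%, 1.33% and 1.34% in control libraries, while the tropomyosin genes took 1.15% ± 0.036 in GR-cKO and 1.1% ± 0.037 in control, with overlap. How well a tag is captured can differ between 3' ends, so an order between genes is less firm than a difference between groups.

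Isoform ratios were taken within each library and do not depend on scaling. In 12 of 13 ratios the groups did not overlap. Each of these 12 had p = 0.1 in a two-sided exact permutation test, the smallest that 3 libraries against 3 allow, and an adjusted p of 0.108 over the 13, so none can pass 0.05 by design. The ratios share genes, with Tnnc1 the denominator of several, and are not independent of each other or of the fold changes above. Of single genes tested 29.9% had separate groups. The share among ratios of other gene pairs was not computed, so the 12 of 13 has no background to stand beside.

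The troponin I ratio shifted toward the slow skeletal form. Tnni1 counts per Tnni3 count were 0.435, 0.42 and 0.445 in GR-cKO libraries, against 0.344, 0.346 and 0.368 in control libraries. The highest control ratio was below the lowest GR-cKO ratio. The log2 ratio differed by 0.30, from means of -1.21 ± 0.04 in GR-cKO and -1.51 ± 0.05 in control (SD, n = 3 each; exact permutation p = 0.1). Put as a share of both troponin I genes, Tnni1 took 30.24% ± 0.61 in GR-cKO and 26.05% ± 0.72 in control, and Tnni3 remained the major gene in every library. The shift came with a higher Tnni1 level and no measurable difference in Tnni3.

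The troponin T ratio was also higher in GR-cKO, though Tnnt1 made up only a trace of troponin T tags. Tnnt1 took 0.5%, 0.504% and 0.552% of troponin T counts in GR-cKO libraries, against 0.442%, 0.429% and 0.478% in control libraries. The groups were separate by a small margin. The log2 ratio of Tnnt1 to Tnnt2 differed by 0.21 (exact permutation p = 0.1, n = 3 each). The log2 ratio of Tnni1 to Tnnt1, the slow skeletal forms of both subunits, was 4.55 ± 0.06 in GR-cKO and 4.61 ± 0.09 in control (SD) and was the only ratio with overlapping groups (exact permutation p = 0.3, n = 3 each).

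Tropomyosin shifted toward Tpm1. Tpm1 took 92.86%, 92.61% and 91.75% of tropomyosin counts in GR-cKO libraries, against 90.72%, 90.24% and 90.34% in control libraries. Tpm4 took 4.03% ± 0.28 in GR-cKO and 5.0% ± 0.25 in control (SD, n = 3 each). Tpm3 took 1.85% ± 0.21 in GR-cKO and 2.51% ± 0.065 in control, and Tpm2 1.72% ± 0.11 in GR-cKO and 2.05% ± 0.053 in control. All 4 shares had separate groups, and shares of 1 total cannot move independently. The log2 ratio to Tpm1 differed by -0.48 for Tpm3, -0.34 for Tpm4 and -0.29 for Tpm2 (exact permutation p = 0.1 each, n = 3 each). Among the minor genes, the Tpm4 to Tpm3 ratio was 2.28, 2.18 and 2.09 in GR-cKO libraries, against 1.92, 1.98 and 2.07 in control libraries, which are separate by a narrow gap.

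**Figure D3:**
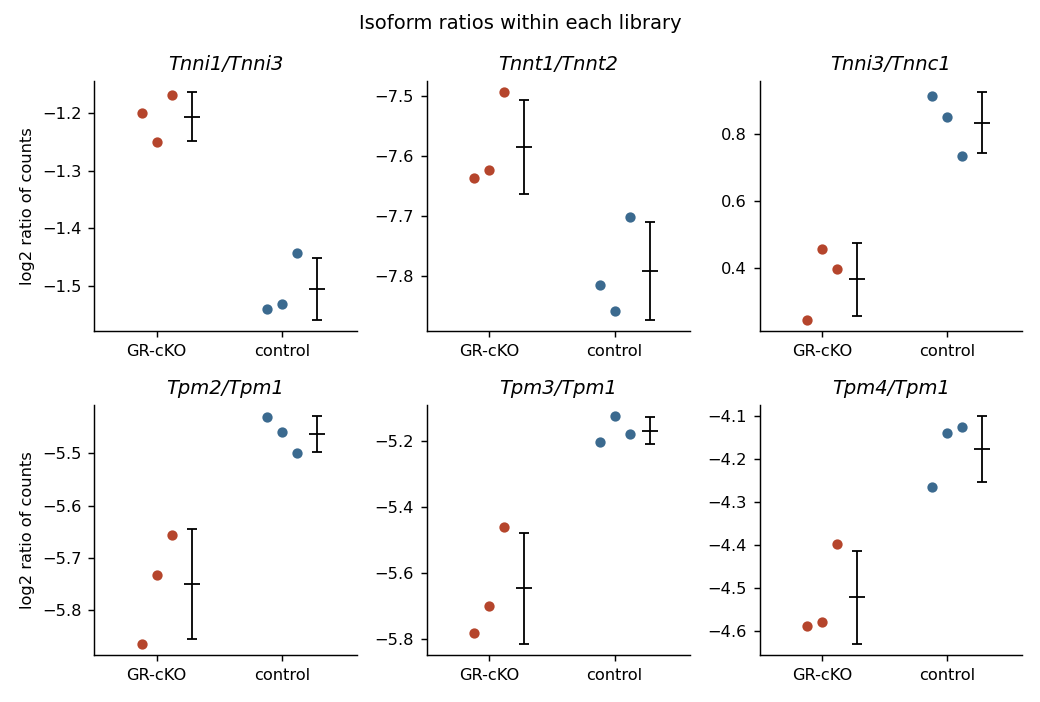
Log2 ratio of the counts of 2 genes within each library (vertical axes, which do not start at 0), with GR-cKO left of control. Points are libraries and the black bar is the mean with the SD over 3 libraries. Tnni1/Tnni3 is higher in GR-cKO (mean -1.21, against -1.51 in control) and the tropomyosin ratios are lower, with no overlap in the 6 ratios shown.

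Ratios between subunits of the troponin complex, and of tropomyosin to troponin C, were compared in the same way. Cardiac troponin I counts per troponin C count were 1.19, 1.37 and 1.32 in GR-cKO libraries, against 1.88, 1.8 and 1.66 in control libraries. The groups were far apart, and the log2 ratio of Tnni3 to Tnnc1 differed by -0.46 (exact permutation p = 0.1, n = 3 each). With both troponin I genes summed the ratio to Tnnc1 was 1.85 in GR-cKO and 2.41 in control (geometric means). Both troponin T genes summed gave 4.55, 4.67 and 4.62 per Tnnc1 count in GR-cKO libraries and 5.87, 5.68 and 5.6 in control libraries. The 4 tropomyosin genes summed gave 5.78, 6.04 and 5.62 in GR-cKO libraries and 8.0, 7.48 and 7.08 in control libraries. Each of these ratios was lower in every GR-cKO library than in every control library. These are ratios of transcripts, not of proteins in the filament.

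Other muscle genes are given beside 7.63% of all genes called higher and 7.19% called lower. Of 17 other thin filament genes, 6 rose and 11 did not pass (median log2 fold change 0.16, against -0.01 over all genes). Skeletal alpha-actin Acta1 was at 650.1 ± 20.3 CPM in GR-cKO and 158.9 ± 4.14 CPM in control, Xirp2, which encodes an actin-binding protein of cell junctions, at 486.9 ± 31.8 CPM in GR-cKO and 97.5 ± 11.5 CPM in control, and cardiac actin Actc1 at 9800 ± 207 CPM in GR-cKO and 6343 ± 98.2 CPM in control (SD, n = 3 each). Their log2 fold changes of 2.03, 2.32 and 0.63 were all above that of Tnnc1. Of 12 thick filament genes 6 rose and 3 fell, with the atrial light chain Myl7 at -0.71, Mybphl at -0.62 and the ventricular light chain Myl3 at 0.51 on the log2 scale. In a list of 7 genes of slow muscle fibres, which shares Myl3 with the thick filament list, 6 rose and the calcium pump gene Atp2a2 fell (-0.44), while the Z-disc gene Csrp3 rose 2.07-fold. This list leaves out the slow myosin heavy chain gene Myh7. Myh7 was counted in the thick filament list and did not pass (-0.16, adjusted p = 0.254 by edgeR), with overlapping groups.

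The fast skeletal paralogues were scarce. Tnnt3, fast troponin T, was at 16.58, 12.85 and 12.52 CPM in GR-cKO libraries, against 5.37, 7.638 and 5.087 CPM in control libraries, or 1.21 ± 0.20 higher on the log2 scale (SE, adjusted p = 8e-05 by edgeR). Tnni2, fast troponin I, was at 7.0 ± 0.583 CPM in GR-cKO and 4.566 ± 0.183 CPM in control and did not pass (SD, n = 3 each; adjusted p = 0.0662 by edgeR), though with ERCC scaling it did. Tnnc2, fast troponin C, had at most 0.469 CPM in any library and was not tested. Together these genes came to 19.01 to 24.58 CPM in GR-cKO libraries and 9.878 to 12.46 CPM in control libraries, a small amount beside the cardiac and slow forms.

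In a list of 16 genes of stress fibres, where the non-muscle tropomyosins sit, 5 fell and 1 rose under TMM scaling, while 1 fell and 2 rose with ERCC scaling (median -0.01 with TMM and 0.09 with ERCC). Beta-actin Actb was at 8237 ± 625 CPM in GR-cKO and 11918 ± 446 CPM in control (SD, n = 3 each; log2 fold change -0.53), Flna, which crosslinks actin, had a log2 fold change of -0.28, and the myosin light chain gene Myl9 rose by 0.53. Of 10 smooth muscle contractile genes 4 rose, among them Cnn1 (1.33), Des (0.97), which is not specific to smooth muscle, and Synpo2 (0.75), and Actg2 fell. The other 5 did not pass, Tagln (-0.23), Myh11 (-0.60), Lmod1 (0.13), Mylk (-0.07) and Smtn (-0.0045). Over all genes 7.63% were called higher and 7.19% lower with TMM scaling. The single rise in the stress fibre list under TMM is near the share of all genes called higher. With ERCC scaling 1355 of the 14386 genes tested were called higher and 522 lower. The median over all genes was -0.01 with TMM and 0.09 with ERCC, as in the stress fibre list.

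Regulators known for these genes were counted next. Of 16 transcription factor genes 1 rose and 4 fell under TMM scaling, while 2 rose and 2 fell with ERCC scaling. Tbx5 was at 58.5 ± 4.13 CPM in GR-cKO and 88.19 ± 2.93 CPM in control, Gata6 at 86.94 ± 2.03 CPM in GR-cKO and 122 ± 2.32 CPM in control, and Tead1, whose product binds MCAT sites, had a log2 fold change of -0.30 (SD, n = 3 each). Of 11 measured splicing factor genes 2 rose and 3 fell, and with ERCC scaling 3 rose and 1 fell. Ptbp1, a repressor of muscle exons, had a log2 fold change of -0.41, Rbm24, which promotes them, 0.37, and Srsf1 -0.38. Of 16 genes for kinases and phosphatases that act on troponin or tropomyosin 0 passed in edgeR, with 2 at an unadjusted p under 0.05, Prkar1a and Dapk3, both higher. In this list 1 gene passed as higher with ERCC scaling in edgeR, and 1 in DESeq2. These lists can be read against 7.63% of all genes called higher and 7.19% called lower with TMM scaling. The 1 of 16 transcription factor genes that rose is no more than the share called higher. With ERCC scaling 1355 of the 14386 genes tested were called higher and 522 lower.

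**Figure D4:**
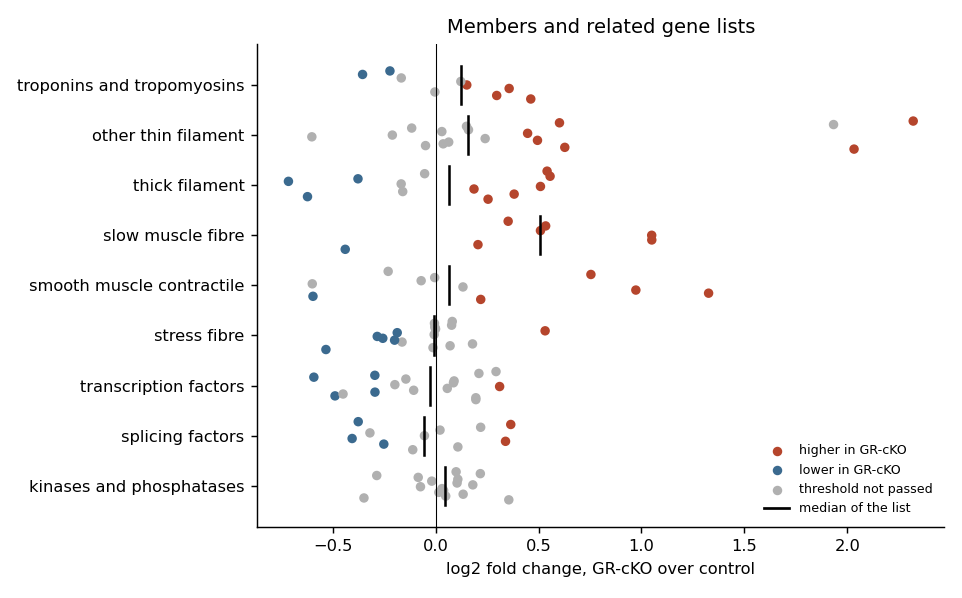
Log2 fold change, GR-cKO over control (horizontal axis), of each tested gene in 9 lists (rows) with TMM scaling. Points are genes coloured by whether they passed an adjusted p of 0.05, and black bars are list medians. Acta1 (2.03) and Xirp2 (2.32) lie far to the right of the troponin and tropomyosin genes, which run from -0.35 to 0.46. With ERCC scaling 2 genes of the stress fibre list are higher and 1 lower, beside 1355 higher and 522 lower over all genes.

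Cardiomyocyte markers had the highest summed level of the marker lists in every library, markers of other heart cells were also present, and summed levels differed between the groups. The counts stand beside 7.63% of all genes called higher and 7.19% called lower. Of 12 cardiomyocyte markers 9 rose and 1 fell, with summed levels of 55860 to 57269 CPM in GR-cKO libraries and 42765 to 44170 CPM in control libraries. Of 10 fibroblast markers 6 rose and 1 fell (7575 to 7756 CPM in GR-cKO, 5964 to 6326 CPM in control), and of 8 endothelial markers 6 rose and 1 fell (1081 to 1180 CPM in GR-cKO, 905.7 to 933.5 CPM in control). Of 10 smooth muscle and pericyte markers 5 rose (5372 to 5658 CPM in GR-cKO, 4810 to 5015 CPM in control). Leukocyte markers summed to 34.43 to 53.94 CPM in GR-cKO and 13.23 to 17.29 CPM in control, with 2 of the 4 tested higher. Of 10 skeletal muscle markers 5 could be tested, 1 rose and 2 fell (158.6 to 168.6 CPM in GR-cKO, 192 to 212.5 CPM in control). Most of this sum was Ckm, which fell from 182.1 ± 9.87 CPM in control to 139.8 ± 7.93 CPM in GR-cKO (SD, n = 3 each). The marker that rose was Tnnt3, so the sum does not describe all of the list. The other marker that fell was Myh8, at means of 2.597 CPM in GR-cKO and 5.449 CPM in control, and 2 tested markers did not pass. Whether Ckm marked skeletal muscle in these heart cells was not tested. Listed markers were not at 0 in all libraries, though Myod1, Myh4 and Myh3 had a count in at most 3. Myh3, embryonic myosin, was at 0 in all 3 GR-cKO libraries and at 0.375 to 0.494 CPM in the control libraries, too low to be tested. In bulk RNA more cells of a type and more RNA per cell cannot be told apart, and the part of cell composition in the troponin and tropomyosin differences was not tested.

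Among 6299 genes with at least 20 CPM, those whose log2 CPM followed Tnnc1 most closely over the 6 libraries were Esam, an endothelial adhesion gene (Pearson r = 0.998), Tox3 (0.998) and Dok7, an adaptor of the neuromuscular junction (0.997). Dok7 was at 37.9 ± 1.9 CPM in GR-cKO and 19.5 ± 0.31 CPM in control (SD, n = 3 each). Those most like Tpm3 were Trabd2b (0.998), Pcp4l1 (0.997) and Eef1b2, a translation elongation factor gene (0.992). The points share 2 genotypes and 6 libraries, so these values describe a common group difference as much as anything within groups.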

How the data were processed

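The authors deposited raw counts per gene in 1 table per library, from QuantSeq forward 3' libraries made with 100 ng of total RNA, per the labels' protocols. The submitters' processing notes name cutadapt 1.16, STAR 2.5.4a, featureCounts 1.6.2, DESeq2 1.18.1 and the build GRCm38. Strand setting and treatment of reads with several matches are not given in the labels or headers. Of 52649 rows 99 were ERCC or SIRV spike-ins, which took 1.98% to 2.36% of counts and were left out of totals and fits. Symbols came from GENCODE M21 for 52403 of 52550 gene rows.

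Groups and replicate numbers came from the titles. Counts were tested with edgeR 4.0.16 (R 4.3.3; TMM factors 0.98 to 1.024, default filter, quasi-likelihood test, Benjamini-Hochberg over 14386 genes, threshold 0.05). Levels are TMM-scaled CPM. On simulated counts with 14097 genes tested, 6% of genes with a 1.25-fold change were called, 46% of those with 1.5-fold and 68% of those with 2-fold, beside 5 false calls. The simulation changed 50 genes at each fold, drawn at any level, while 2132 genes passed in the data. These rates therefore need not hold for the abundant genes here, and Tnnt2 passed at 1.11-fold. Ratios and shares used counts within a library and exact permutation tests (scipy). Likeness used log2(CPM + 0.5). DESeq2 1.42.0, size factors, ERCC scaling, no filter, a replicate block, removal of X and Y genes and of each library were alternatives. No library was a copy of another in its group (mean chi-square per gene 8.4 to 17.9). Genes named were the 9 members, up to 3 of each list with the smallest p, and the 3 most like Tnnc1 and Tpm3. Atp2a2, Actg2, Myh7, Tagln, Myh11, Lmod1, Mylk, Smtn, Myod1, Myh4, Myh3, Nisch, Dnaaf3 and Tpm3-rs7 were named after their values were seen. The members and lists were chosen with earlier results of these data known.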

Additional observations from a re-analysis of the deposited data

How the results depend on the processing

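Tnnc1 and Tnni1 passed in all 12 alternative fits, and Tpm2 and Tnni3 in none. Calls of Tnnt1, Tnnt2, Tpm1, Tpm3 and Tpm4 changed with a library or the scaling, as given with each gene; the cause was not tested. Without 1 library at a time, 3 to 7 of the 9 genes passed, 2 to 5 higher and 1 to 2 lower; the lowest of these counts came without control replicate 2, with 3 genes passing, 2 higher and 1 lower, and without GR-cKO replicate 2 only 1 passed as lower. Over all genes 1572 to 1879 then passed. With ERCC scaling 522 genes were lower, 0 of them among the 9. The Tnni3 estimate, near 0, was 0.0003 with DESeq2 size factors, 0.09 with ERCC scaling and -0.0375 to 0.0296 without 1 library, including 0.0296 without GR-cKO replicate 1 and 0.0281 without control replicate 1. The ratios and shares kept their direction under every alternative run. Where the groups do not overlap, leaving out 1 library cannot reverse a direction, so for those ratios and shares this was no test. The Tnni1 to Tnni3 log2 ratio differed by 0.28 to 0.33.

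With the replicate number as a block 2353 genes and 6 of the 9 passed, and the block changed no call among the 9. Within pairs the Tnni1 to Tnni3 log2 ratio differed by 0.30 on average, which equals the difference of the group means by construction. Deviations of same-numbered libraries correlated at -0.007, -0.032 and 0.114 over 10154 genes, so the numbers were not taken as pairs. Tnnt1 had the fewest counts of the 9 genes, 747 to 1047 a library.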
